A study of Mus musculus with 8 samples.

Results

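The LIN28, HMGA and IGF2BP genes of the mouse fetus were compared between the epithelium and the mesenchyme of the distal tips of the embryonic lung. Of the 7 genes of these families (*Lin28a*, *Lin28b*, *Hmga1*, *Hmga2*, *Igf2bp1*, *Igf2bp2* and *Igf2bp3*), 5 were analysed, out of 18996 genes in all. Members were found by their symbol in the annotation of the array, and the probe with the highest mean signal over the 8 samples stood for each gene. *Hmga1* and *Igf2bp2* are not analysed here. The 5 genes had 14 probes, of which *Lin28a* had 1, *Lin28b* 4, and *Hmga2*, *Igf2bp1* and *Igf2bp3* 3 each, and none of the 14 was left out for a missing or low value.

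The tips came from untreated wild-type lungs at E12.5 of embryonic development and were dissected with the mesothelium, the outer cell layer, and then parted into epithelium and mesenchyme with dispase, a protease, and fine needles. The strain is C57bl/6J in the labels, C57BL/6 in the methods and BALb/c in the series description, and the labels call the material an organ homogenate. By the labels, the 4 epithelium samples were labelled with Cy3 and the 4 mesenchyme samples with Cy5, with 1 sample of each on each of 4 arrays, so that dye and tissue cannot be told apart. The series description also gives a design of 2 colours, whereas the methods describe hybridization of RNA labelled with Cy3 alone, and the labels are followed here for the dyes and the pairing. No source says whether the 4 samples of a tissue came from separate embryos or pools, so that the p-values cover the variation among these samples alone and may reflect technical variation.

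LIN28A and LIN28B are RNA-binding proteins of early embryonic cells. They bind the precursors of the let-7 microRNAs, and LIN28A recruits terminal uridylyltransferases, which add uridines to the precursor and mark it for decay. Mature let-7 in turn represses the transcripts of *Lin28a*, *Lin28b*, *Hmga2* and *Igf2bp1*, among many others, so that these genes are high in the fetus and fall as let-7 rises in later development. HMGA2 is a chromatin protein that binds AT-rich DNA through its AT-hooks, and IGF2BP1 and IGF2BP3 bind transcripts such as *Igf2* and *Myc* and control their stability, place and translation. The *Lin28b* gene and *Hmga2* are known for their part in the growth of the mouse.

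The let-7 microRNAs themselves are not analysed here, since no probe of the annotation was named for a let-7 gene. Their sequences are shown because the seed, the stretch that pairs with a target transcript, is what the genes above have in common as targets. In the RefSeq table of GRCm38.p6, 11 mature mouse microRNAs held the let-7 seed at bases 2 to 8, which stand in capitals below in 4 of them, each with the position of 1 of its genes.
mmu-let-7a-5p, chr13:48538239-48538260, minus strand: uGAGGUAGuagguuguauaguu
mmu-let-7b-5p, chr15:85707325-85707346, plus strand: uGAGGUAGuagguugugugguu
mmu-let-7d-5p, chr13:48536078-48536099, minus strand: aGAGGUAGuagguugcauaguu
mmu-let-7g-5p, chr9:106178846-106178867, plus strand: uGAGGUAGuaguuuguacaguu

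LIN28 proteins bind the terminal loop of the let-7 precursor, where the letters GGAG are the known contact of their zinc knuckles. Of the 14 hairpins of the family in the RefSeq table, 12 had both arms listed, and 9 of these held GGAG in the loop, between the arms. Anywhere in the hairpin, GGAG stood in 11 of the 14 and in 44.5% of all 1005 mouse hairpins. The hairpin of let-7g with the letters (in capitals) and that of let-7b without them are shown, read 5′ to 3′.
Mirlet7g, chr9:106178840-106178927, plus strand: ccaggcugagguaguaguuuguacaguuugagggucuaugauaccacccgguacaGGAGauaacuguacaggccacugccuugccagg
Mirlet7b, chr15:85707319-85707403, plus strand: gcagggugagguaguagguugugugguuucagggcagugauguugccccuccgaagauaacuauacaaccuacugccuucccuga

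The samples of the tissues stood well apart. Their log2 values correlated at 0.9956 to 0.9975 among the epithelium samples, at 0.9946 to 0.9959 among the mesenchyme samples and at 0.964 to 0.9677 between the tissues. All 14 epithelial markers, such as *Cdh1* and *Nkx2-1*, were higher in epithelium, and all 12 mesenchymal markers, such as *Tcf21* and *Wnt2*, were higher in mesenchyme. Markers of other cells moved with the tissues too. Those of endothelium (8 of 8), red cells (7 of 8) and leukocytes (6 of 6) were higher in mesenchyme, and those of smooth muscle (5 of 5) and neural cells (5 of 5) were higher in epithelium, while mesothelial markers were split, 3 higher in mesenchyme and 2 in epithelium. The smooth muscle markers had a mean signal of 12.43 to 12.52 in the epithelium samples and 9.591 to 9.828 in the mesenchyme samples, and the red cell markers 7.41 to 7.502 and 10.24 to 10.38, on the log2 scale. No marker was listed at 0. The part of these cells in the values of the LIN28, HMGA and IGF2BP genes was not tested, and in bulk tissue fewer cells of a type and less RNA per cell cannot be told apart.

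By the brightest probe of each gene, *Igf2bp1* was higher in epithelium, and *Hmga2* and *Igf2bp3* were slightly higher on each of the 4 arrays. *Lin28a* and *Lin28b* showed no difference beyond their spread. The second *Igf2bp1* probe was not called. With limma, unpaired and with Benjamini-Hochberg adjustment over all 18996 genes at a threshold of 0.05, 1 of the 5 genes was called higher in epithelium (20%) and 0 were called higher in mesenchyme, also at an unadjusted p under 0.05. Of all genes, 45.9% were called in either direction, 21.2% higher in epithelium and 24.8% higher in mesenchyme, so that the share among the 5 was near that of all genes. With the array as a block, 3 of the 5 genes were called higher in epithelium (60.0%) and 0 in mesenchyme, where 57.4% of all genes were called in either direction and 26.5% higher in epithelium. Samples of the same array deviated together, so that the block is the paired form of the same comparison. All differences below are epithelium minus mesenchyme on the log2 scale, and the signals of different probes are not set against each other.

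**Figure D1:**
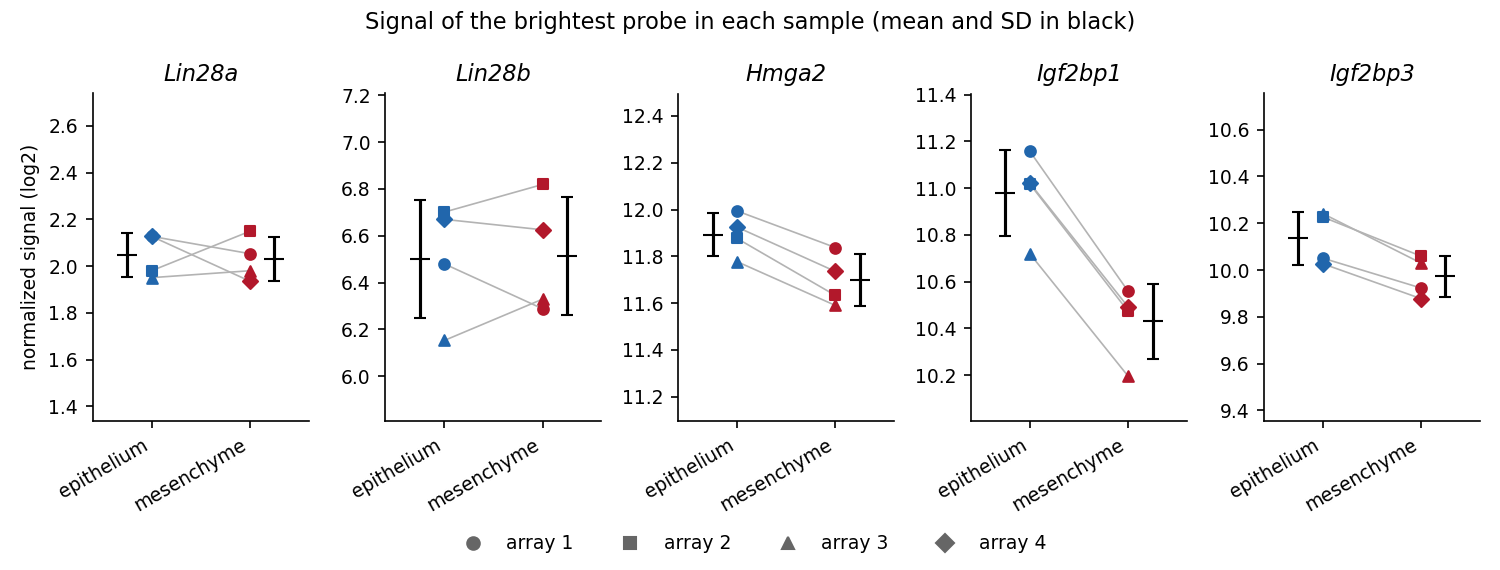
Normalized log2 signal of the brightest probe of each gene in the 4 epithelium (blue) and 4 mesenchyme (red) samples, with lines joining the samples of an array, the marker shape giving the array, and black bars for the mean and SD. All panels span the same range of log2 units. The lines fall on every array for *Hmga2*, *Igf2bp1* and *Igf2bp3*, and the tissues do not overlap for *Igf2bp1*, while the lines of *Lin28a* and *Lin28b* run both ways.

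*Lin28a*, the founding LIN28 gene of pluripotent cells, had a signal of 2.13, 1.98, 1.95 and 2.13 in epithelium samples 1 to 4 and of 2.05, 2.15, 1.98 and 1.94 in mesenchyme samples 1 to 4. The samples of the tissues overlapped over nearly their whole range. The signal lay near the floor of the array, at the 1.86 percentile of all genes, and no detection call was used here, so that it is not known whether the transcript was detected at all. The difference of 0.017 (SE 0.071, 95% interval -0.146 to 0.179, limma adjusted p = 0.877) had the epithelium higher on 2 of 4 arrays. It turned negative when epithelium sample 1 or 4 or mesenchyme sample 4 was left out, at -0.0102, -0.0102 and -0.0144.

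*Lin28b*, its paralogue, which likewise blocks let-7, had a signal of 6.48, 6.70, 6.15 and 6.67 in epithelium samples 1 to 4 and of 6.29, 6.82, 6.33 and 6.63 in mesenchyme samples 1 to 4. Sample 2 was the highest of each tissue, and the samples of the tissues overlapped. The means were 6.5 ± 0.25 in epithelium and 6.52 ± 0.25 in mesenchyme (SD, n = 4). The difference was -0.015 (SE 0.158, 95% interval -0.376 to 0.347, limma adjusted p = 0.955), and on the 4 arrays it was 0.19, -0.12, -0.18 and 0.04. With the array as a block the interval was -0.211 to 0.181 (adjusted p = 0.884). The direction is not settled, since the difference was 0.041 after loess within each array and between -0.0904 and 0.102 with 1 sample left out, turning positive without epithelium sample 3 or mesenchyme sample 2 or 4.

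The other 3 *Lin28b* probes were dim, with mean signals of 2.43, 2.31 and 2.05 on the log2 scale, at the 18.5, 14.3 and 2.86 percentiles of all probes. Their differences were -0.17, 0.31 and 0.05, with limma adjusted p over all probes of 0.440, 0.0684 and 0.831. The probe at 0.31, not annotated with a curated RefSeq mRNA, was higher in epithelium on all 4 arrays, and its exact permutation p was 0.0571 (two-sided).

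*Hmga2*, the let-7 target with many pairing sites in its transcript, had a signal of 11.99, 11.88, 11.78 and 11.92 in epithelium samples 1 to 4 and of 11.84, 11.63, 11.59 and 11.74 in mesenchyme samples 1 to 4. Every epithelium sample was above the mesenchyme sample of its own array, and mesenchyme sample 1 reached above epithelium sample 3. The mean was 11.89 ± 0.09 in epithelium and 11.70 ± 0.11 in mesenchyme (SD, n = 4), a 1.14-fold difference. Unpaired, the difference of 0.19 (SE 0.075, 95% interval 0.0227 to 0.365) was not called, with a limma adjusted p of 0.0643 and an exact permutation p of 0.0571. With the array as a block it was called (SE 0.027, interval 0.122 to 0.266, adjusted p = 0.00388), and the differences on the 4 arrays were 0.16, 0.24, 0.19 and 0.19. The unpaired call also depended on single samples, since it was made without epithelium sample 3 (0.23, adjusted p = 0.0442) or without mesenchyme sample 1 (0.24, adjusted p = 0.0314), and adjusted p over the 8 samples left out in turn ran from 0.0314 to 0.158.

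The 3 *Hmga2* probes did not give 1 value. The second probe, with a mean signal of 8.52, had a difference of -0.0064 (limma adjusted p over all probes = 0.971) and was higher in epithelium on 2 of 4 arrays. The third, with a mean signal of 4.54, is not annotated with a curated RefSeq mRNA. Its difference was 0.34 (SE 0.092, adjusted p = 0.0178), and its tissues did not overlap (exact permutation p = 0.0286, the smallest that 4 samples against 4 allow).

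*Igf2bp1*, the founding member of the IGF2BP family, also known as the zipcode-binding protein of *Actb* mRNA and as the coding-region binder of *Myc* mRNA, had a signal of 11.16, 11.02, 10.72 and 11.02 in epithelium samples 1 to 4. In mesenchyme samples 1 to 4 it was 10.56, 10.47, 10.20 and 10.49. The lowest epithelium sample was above the highest mesenchyme sample, and array 3 was the lowest in both tissues. The mean was 10.98 ± 0.18 in epithelium and 10.43 ± 0.16 in mesenchyme (SD, n = 4), a 1.46-fold difference. The difference was 0.55 (SE 0.113, 95% interval 0.290 to 0.806, limma adjusted p = 0.00370), and the exact permutation p was 0.0286, the smallest possible. On the 4 arrays it was 0.60, 0.54, 0.52 and 0.53. Among all genes, 24.9% had a larger absolute difference than *Igf2bp1*.

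The size and the call for *Igf2bp1* depended on the probe. The brightest probe is not annotated with a curated RefSeq mRNA. The second, which is, had mean signals of 10.51 in epithelium and 10.43 in mesenchyme. Its difference was 0.08 (SE 0.069, limma adjusted p over all probes = 0.417, 0.105 with the block), though with the epithelium higher on 4 of 4 arrays. The third, also without such an annotation, had a difference of 0.23 (SE 0.066, adjusted p = 0.0224), and its tissues did not overlap (exact permutation p = 0.0286). The mean of the 3 probes gave 0.28, against 0.55 for the brightest probe alone, and was still called (adjusted p = 0.00198).

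*Igf2bp3*, the family member known as an oncofetal RNA-binding protein, had a signal of 10.05, 10.23, 10.24 and 10.03 in epithelium samples 1 to 4 and of 9.92, 10.06, 10.03 and 9.88 in mesenchyme samples 1 to 4. Samples 2 and 3 were the highest of each tissue, each epithelium sample was above the mesenchyme sample of its array, and the tissues overlapped. The mean was 10.14 ± 0.11 in epithelium and 9.97 ± 0.09 in mesenchyme (SD, n = 4), a 1.12-fold difference. Unpaired, the difference of 0.16 (SE 0.074, 95% interval -0.0067 to 0.334) was not called (limma adjusted p = 0.109, exact permutation p = 0.143). With the array as a block it was called (SE 0.027, interval 0.0917 to 0.236, adjusted p = 0.00670), and the differences on the 4 arrays were 0.13, 0.17, 0.21 and 0.15.

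The 3 *Igf2bp3* probes lay close together. The second had a difference of 0.28 (limma adjusted p over all probes = 0.0822, 0.00288 with the block) and the third one of 0.25 (SE 0.080, adjusted p = 0.0328, exact permutation p = 0.0286), and all 3 probes were higher in epithelium on all 4 arrays. The mean of the 3 probes gave 0.23 and was called without the block (adjusted p = 0.0353).

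Over all 14 probes, 4 were called higher in epithelium (28.6%) and 0 in mesenchyme in the unpaired comparison, where 19.7% of all 33325 probes were called higher in epithelium. Each of these 4 belonged to *Hmga2*, *Igf2bp1* or *Igf2bp3*, and none of the 5 *Lin28a* and *Lin28b* probes was called. All of those 5 but the brightest *Lin28b* probe had low signals, and 5 probes are too few to set against the share of all probes. With the array as a block, 7 of the 14 were called higher in epithelium (50%), and 24.3% of all probes. Probes of a gene share its transcript and are not replicates.

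**Figure D2:**
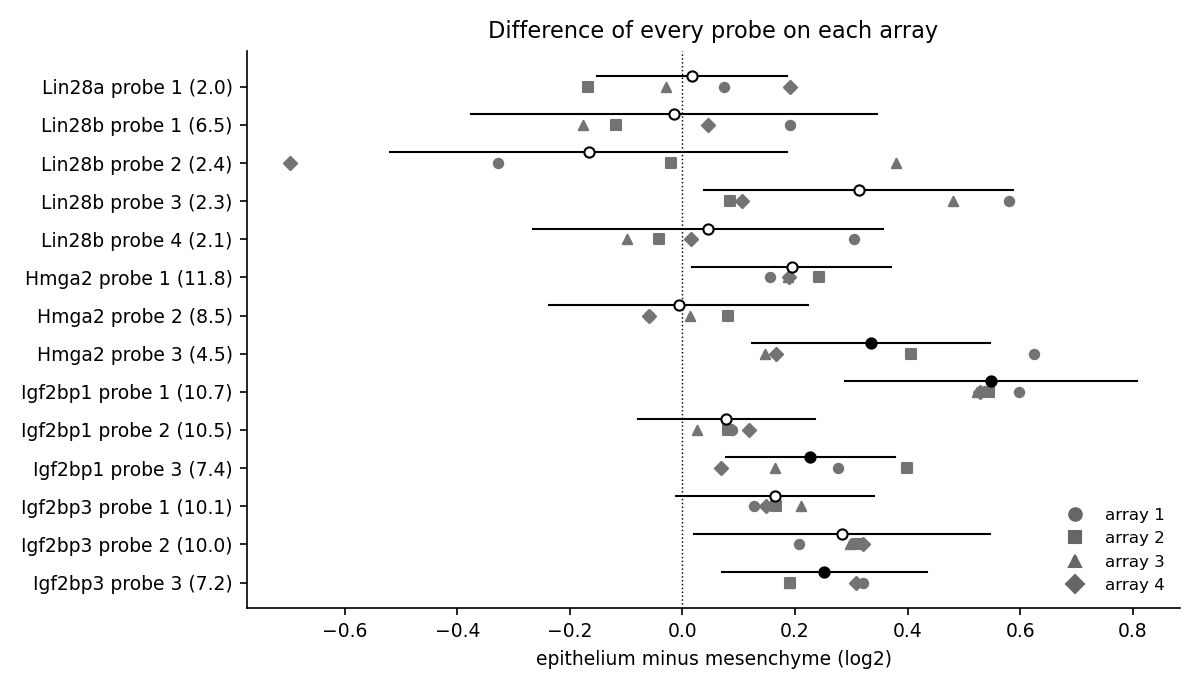
Difference of each of the 14 probes (epithelium minus mesenchyme, log2) on each array (grey, marker shape giving the array), with the mean and 95% interval of the unpaired limma test above it (filled where called) and the mean log2 signal of the probe in brackets. All 3 *Igf2bp1* and all 3 *Igf2bp3* probes lie above 0 on every array, and the second *Hmga2* probe and the brightest *Lin28b* probe centre near 0.

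In size, the differences of these genes were small beside those of many others. A larger absolute difference than that of *Hmga2* was seen in 57.7% of genes and than that of *Igf2bp3* in 63.3%, and for *Lin28a* and *Lin28b* the shares were 95.8% and 96.3%. The median difference over all genes was -0.029.

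**Figure D3:**
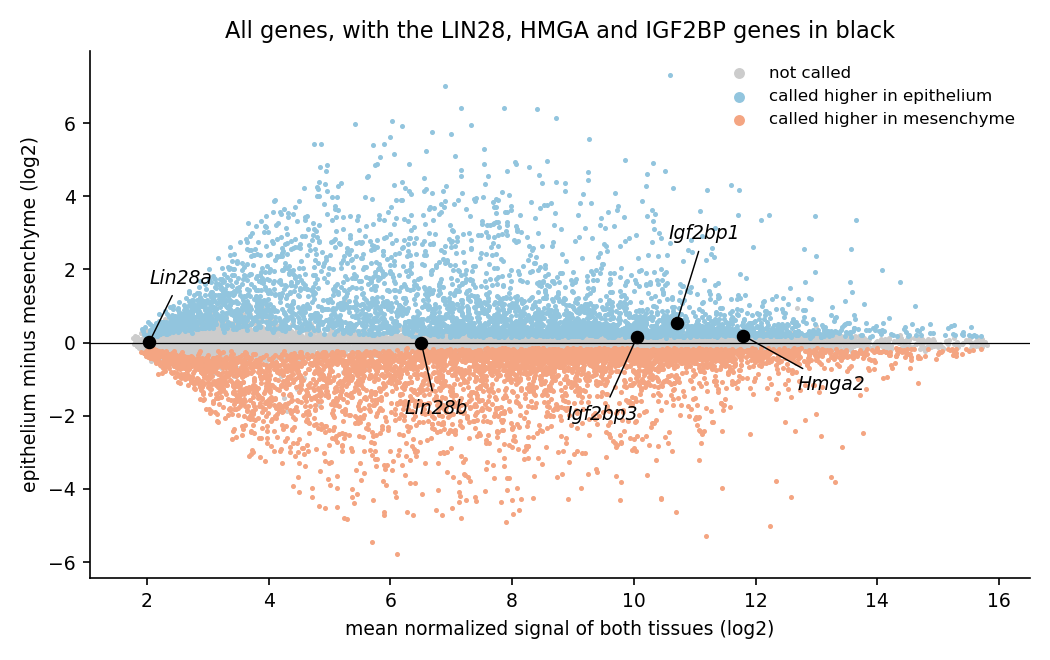
Difference between the tissues (epithelium minus mesenchyme, log2) against the mean normalized log2 signal for all 18996 genes, with genes called in the unpaired limma test in blue (higher in epithelium) and orange (higher in mesenchyme), the rest in grey, and the 5 genes in black. *Igf2bp1* at 0.55 stands above the other 4 genes, which lie at -0.015 to 0.19, and differences of 2 and more are common in both directions.

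The genes whose pattern over the 8 samples was most like that of *Igf2bp1*, the gene called without the block, were *Tet3* (Pearson r = 0.9938, difference 0.30), *Vangl2* (r = 0.9934, difference 0.39) and *Evl* (r = 0.9892, difference 0.30). The samples share 4 arrays and fall into their tissues, and 878 of the 13297 genes compared, those above the 30th percentile of mean signal, had an r above 0.9.

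Promoters are shown for *Hmga2* and *Igf2bp3*, which were higher in epithelium on every array by a like amount, and for *Lin28b*, which was not. That of *Igf2bp1* is not shown, since the promoter sequences used held none for it. They are RefSeq sequences of GRCm38.p6, of 300 bases from 250 before to 50 after the start, read 5′ to 3′ on the strand of the gene. Capitals mark CACGTG, the E-box that MYC and MYCN can bind, and CTCTCT or, on the other strand, AGAGAG, with overlapping copies counted singly. The *Hmga2* promoter held 8 copies of CTCTCT and 0 of CACGTG, that of *Igf2bp3* 2 of CACGTG and 0 of CTCTCT, and that of *Lin28b* 1 of each. Of 32851 promoters of this length, 7.15% held CACGTG and 27.6% CTCTCT. The GC content was 57.7% for *Hmga2*, 60.3% for *Igf2bp3* and 39.0% for *Lin28b*, where the median promoter had 52.7%.
Hmga2, chr10:120476420-120476719, minus strand: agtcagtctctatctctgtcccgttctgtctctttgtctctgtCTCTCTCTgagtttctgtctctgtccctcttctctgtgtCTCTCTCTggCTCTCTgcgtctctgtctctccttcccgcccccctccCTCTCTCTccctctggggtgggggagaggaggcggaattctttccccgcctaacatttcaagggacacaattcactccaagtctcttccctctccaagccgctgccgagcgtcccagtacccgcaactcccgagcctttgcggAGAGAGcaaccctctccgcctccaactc
Igf2bp3, chr6:49214905-49215204, minus strand: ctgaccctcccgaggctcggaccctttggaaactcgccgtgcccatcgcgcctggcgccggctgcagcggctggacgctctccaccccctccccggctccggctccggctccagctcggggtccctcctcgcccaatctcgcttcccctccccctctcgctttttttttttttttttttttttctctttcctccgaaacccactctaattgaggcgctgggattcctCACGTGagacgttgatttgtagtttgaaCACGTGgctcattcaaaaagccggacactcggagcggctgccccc
Lin28b, chr10:45470152-45470451, minus strand: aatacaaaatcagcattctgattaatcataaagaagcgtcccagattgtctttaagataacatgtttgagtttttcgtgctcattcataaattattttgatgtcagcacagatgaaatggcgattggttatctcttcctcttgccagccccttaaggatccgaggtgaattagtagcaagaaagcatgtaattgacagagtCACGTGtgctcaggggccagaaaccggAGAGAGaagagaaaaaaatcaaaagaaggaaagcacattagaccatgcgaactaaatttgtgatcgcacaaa

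The genes that make, block and obey let-7 were then counted, beside the 21.2% of all genes called higher in epithelium, the 24.8% called higher in mesenchyme and the median of -0.029. Of 13 genes that process microRNAs, 6 were higher in epithelium, 1 was higher in mesenchyme and 6 were not called, with a median difference of 0.09. *Ago1*, an Argonaute that carries the mature microRNA, was higher in epithelium by 0.98 (SE 0.058, limma adjusted p = 1.28e-06), and its 3 probes ran from 0.58 to 0.98. *Dicer1*, which cuts the precursor hairpin and is itself a let-7 target, was higher by 0.58 (adjusted p = 4.72e-05) and *Ago4*, another Argonaute, by 0.42 (adjusted p = 0.0123), and each had 1 called probe, of 2 and 5. *Prkra*, a partner of Dicer, was higher in mesenchyme, at -0.20 (adjusted p = 0.0474), though neither of its probes was called when adjusted over all probes.

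Of 7 analysed partners and effectors of LIN28, 2 were higher in epithelium and 0 in mesenchyme, with a median of 0.04. *Trim25*, a ubiquitin ligase that binds the let-7 precursor and aids its uridylation, was higher in epithelium by 0.38 (SE 0.093, limma adjusted p = 0.00870), which 1 of its 3 probes showed. *Msi2*, a Musashi RNA-binding protein, was higher by 0.30 (adjusted p = 0.0204), and 4 of its 5 probes were called. The uridylyltransferases that LIN28A recruits were not called, with *Tut4* at 0.04 (adjusted p = 0.837, its 4 probes from -0.30 to 0.35) and *Tut7* at -0.0086 (adjusted p = 0.946). *Dis3l2*, the exonuclease that degrades uridylated precursors, stood at 0.17 (adjusted p = 0.425). *Trim71* is not analysed here.

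Of 18 other known let-7 targets analysed, 11 were higher in epithelium, 4 were higher in mesenchyme and 3 were not called, with a median of 0.28. The MYC genes differed in opposite directions. *Mycn* was higher in epithelium, at 11.45 ± 0.13 against 10.07 ± 0.11 (SD, n = 4; difference 1.38, limma adjusted p = 1.88e-06). *Myc* was higher in mesenchyme, at 8.94 ± 0.10 in epithelium and 11.11 ± 0.09 in mesenchyme (difference -2.16, adjusted p = 3.16e-08). All of its 12 probes were called, from -2.22 to -1.98, but some may be replicate spots of the same probe. *Pik3ip1*, an inhibitor of PI3 kinase, was higher in epithelium by 1.40 (adjusted p = 4.98e-08). *Igf1r*, the receptor through which IGF2 signals, stood at 0.03 (adjusted p = 0.633).

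Of 7 analysed transcripts that IGF2BP proteins bind, 2 were higher in epithelium, 3 were higher in mesenchyme and 2 were not called, with a median of 0.05. *Igf2*, the fetal growth factor that names the family, was higher in epithelium, at 14.63 ± 0.01 against 14.43 ± 0.03 (SD, n = 4; difference 0.21, SE 0.046, limma adjusted p = 0.00546). Of its 11 probes, some of which may be replicate spots, 5 were called, with differences over the 11 from 0.05 to 0.38. *H19*, the imprinted neighbour of *Igf2*, stood at 0.19 (adjusted p = 0.0542) and was called with the block (adjusted p = 0.00274). *Mapk4*, whose transcript IGF2BP1 binds, was higher in epithelium by 1.57 (adjusted p = 6.70e-07) at a low signal of 3.99 against 2.42. The surface receptor *Cd44* was higher in mesenchyme (-1.11, adjusted p = 2.89e-06), and so was *Myc*, counted here too.

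Of 12 genes whose proteins share mRNA-protein particles with the IGF2BPs, 4 were higher in epithelium and 3 in mesenchyme, with a median of 0.03. *Elavl2*, an AU-rich element binder of the Hu family, was higher in epithelium by 1.66 (limma adjusted p = 1.11e-07). All 5 analysed neural markers were higher in epithelium too, by 0.91 to 2.17, and the part of neural cells in the *Elavl2* value was not tested. *Elavl1* was higher in epithelium by 0.43 (adjusted p = 0.000235). *Fmr1* was higher in mesenchyme (-0.44, adjusted p = 0.00119) in 1 of its 2 probes, which ran from -0.44 to -0.06. Of 10 analysed genes of N6-methyladenosine, the mRNA mark that IGF2BPs can read, 2 were higher in each tissue, with a median of -0.05. *Mettl14*, of the writer complex, was higher in epithelium by 0.58 (adjusted p = 9.64e-05) in 1 of its 3 probes, which ran from -0.34 to 0.58. *Wtap*, of the same complex, was higher in mesenchyme (-0.37, adjusted p = 0.00937), as was *Ythdc2*, a reader and helicase (-0.37, adjusted p = 0.00872), each in 1 of its 3 probes, which ran from -0.37 to 0.10.

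Of 8 other high-mobility-group genes analysed, 3 were higher in epithelium and 1 in mesenchyme, with a median of 0.13. *Hmgn3*, a nucleosome binder, was higher in epithelium by 1.0 (SE 0.112, limma adjusted p = 8.84e-05). Its relative *Hmgn5* was higher in mesenchyme (-0.54, adjusted p = 0.00194) in 1 of its 2 probes, which ran from -0.54 to -0.30. *Hmg20b*, an HMG-box gene, was higher in epithelium by 0.32 (adjusted p = 0.0170). Of 8 genes linked to HMGA2 in other tissues, 3 were higher in epithelium and 4 in mesenchyme, with a median of 0.04. *Plagl1*, an imprinted zinc-finger gene of the *Plag1* family, was higher in mesenchyme (-2.55, adjusted p = 5.69e-09), and so was *Snai1*, a repressor of epithelial genes (-1.59, adjusted p = 5.14e-07). *Cdkn2b*, a cell cycle inhibitor, was higher in epithelium by 1.15 (adjusted p = 0.000644) at a low signal of 3.95 against 2.80. *Plag1* varied widely between arrays and stood at 0.34 (SE 0.77, adjusted p = 0.760), and was called with the block (adjusted p = 0.0107). Its signal was low too, at 3.43 in epithelium against 3.09 in mesenchyme.

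Of 15 genes of proliferating cells, 4 were higher in epithelium and 5 in mesenchyme, with a median of -0.11. *Mki67*, the Ki-67 gene, was higher in epithelium by 0.24 (limma adjusted p = 0.00504), while *Mcm4*, of the replicative helicase (-0.68, adjusted p = 7.67e-06), *Ccnb2*, a mitotic cyclin (-0.62, adjusted p = 0.000649), and *Birc5*, of the chromosomal passenger complex (-0.48, adjusted p = 0.00545), were higher in mesenchyme. Of the 2 *Mcm4* probes, 1 was called.

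**Figure D4:**
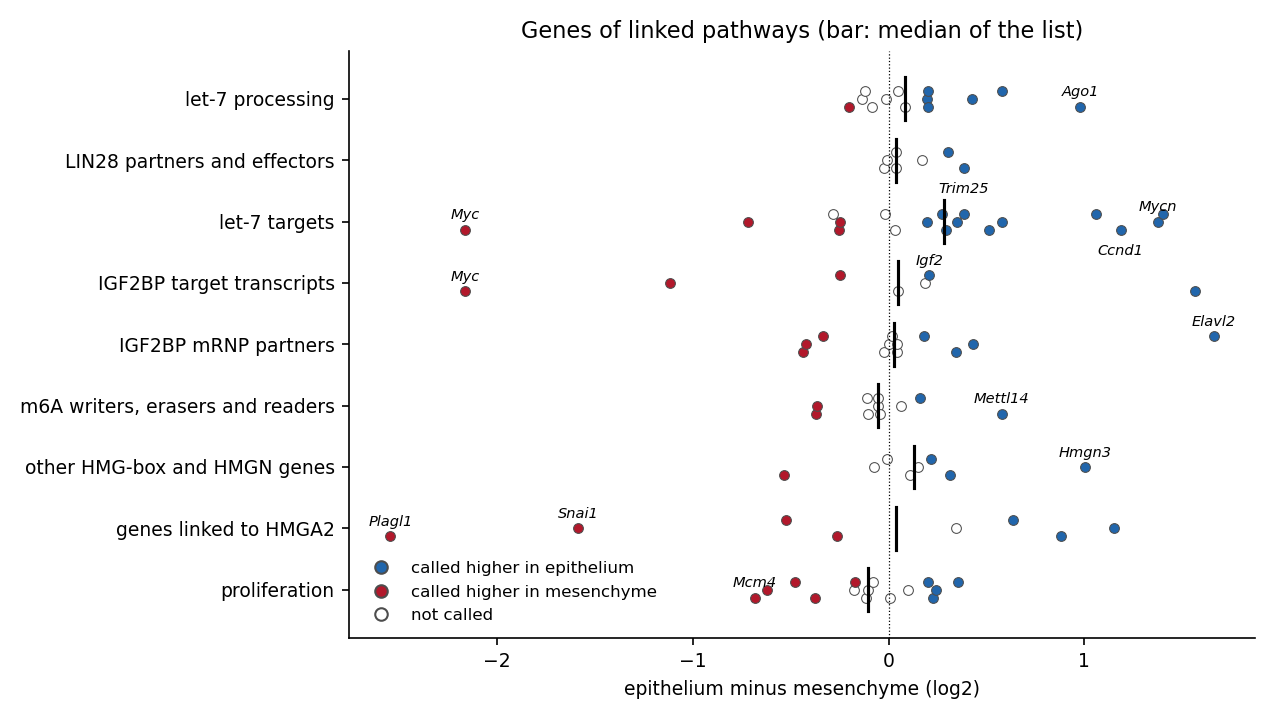
Difference of each gene (epithelium minus mesenchyme, log2) in the 9 lists of linked genes, as filled points where called in the unpaired limma test (blue, higher in epithelium; red, higher in mesenchyme) and open points where not, with a bar at the median of each list. The medians lie between -0.11 and 0.28, while single genes run from -2.55 for *Plagl1* to 1.66 for *Elavl2*.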

How the data were processed

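Epithelium and mesenchyme of E12.5 mouse lung tips were measured on 4 arrays of 2 colours, 8 samples in all. The values are log2 signals deposited by the authors, who by their methods corrected the background with normexp on negative controls, took logarithms and applied quantile normalization. No source gives the base of the logarithm, which was read as 2 because values ran from 1.34 to 15.88. This normalization assumes the same spread of signals in both dyes. The paper's text gives fewer replicates for this experiment than the 4 samples of each tissue analysed here. Precision is limited by the number of arrays.

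Of 45220 features, 33653 were annotated with 1 gene, of which 33517 matched the RefSeq table of GRCm38.p6, and 56 had several and were not used. The 523 features with a missing value were left out, which left 33325, and the brightest of each gene gave 18996 genes, of which 8226 had more than 1. Each feature was taken as a probe, so that any replicate spots, which the methods average, were counted as separate probes.

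Tests between the tissues used limma (version 3.58.1, R 4.3.3; lmFit, then eBayes), 4 samples against 4, two-sided, unpaired as in the methods. Single genes were also tested by exact permutation, with a smallest possible p of 0.0286. The unpaired limma test was tried on simulated data, and the choice of the brightest probe on a toy table. The simulated samples were independent, without shared deviations of an array. The block, the exact permutation, the other alternatives and the sequence counts were not tested in this way. Plots were drawn in matplotlib 3.10.9 with Python 3.11.15. The alternatives were the array as a block, the mean of a gene's probes, a filter at the 30th percentile of signal, loess within arrays, centring on sample medians, a trended robust variance, features with missing values, and each sample left out.

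By the labels, same-numbered samples lie on 1 array. Their deviations from the tissue means correlated at 0.347, 0.620, 0.528 and 0.467, against -0.141 to -0.037 for the highest on another array, so the numbers pair the samples. The deviations cancel within each tissue, so that positive values on the same array push those on other arrays to be negative on average.

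The text names all members, up to 3 called genes with the largest difference of each of the 17 lists (a shorter account is given of cell markers), some genes fixed by name (*Tut4*, *Tut7*, *Dis3l2*, *Trim71*, *Igf2*, *H19*, *Myc*, *Mycn*, *Igf1r*, *Plag1*, *Mki67*) and the 3 genes most like a called member. *Prkra* and the marker genes given as examples fall outside this rule and were named after their values were seen. The members and lists were chosen with earlier results of these data known.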

Additional observations from a re-analysis of the deposited data

How the results depend on the processing

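*Igf2bp1* was called higher in epithelium under all 21 settings, with differences of 0.470 to 0.635 (limma adjusted p from 0.00134 to 0.0126) with 1 sample left out, and lowest at 0.28 as the mean of its probes. Each setting used its brightest probe or a mean that included it. The second *Igf2bp1* probe alone stood at 0.08 and was not called (limma adjusted p over all probes = 0.417, 0.105 with the block). The number of the 5 genes called higher in epithelium was 1 in the main comparison, after centring on sample medians and with features holding missing values. It was 2 as the mean of probes, with the filter on dim genes, after loess and with the trended robust variance, 1 to 2 with 1 sample left out, and 3 with the array as a replicate block. None was called higher in mesenchyme under any setting it was tested in. The count of all genes called ran from 3649 to 5476 for epithelium and from 4311 to 5877 for mesenchyme over the settings run. Of the genes called, 46.1% were higher in epithelium, and 50.3% after loess.

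*Hmga2* was called with the replicate block (0.1939, adjusted p = 0.00388), with the filter on dim genes (0.1939, 0.0383), after loess (0.2195, 0.0409) and with the trended robust variance (0.1939, 0.0224), and ran from 0.158 to 0.240 with 1 sample left out, called in 2 of 8. *Igf2bp3* was called with the block (0.1638, 0.00670) and as the mean of its probes (0.2334, 0.0353), and ran from 0.129 to 0.200 with 1 sample left out, called in 0 of 8. *Lin28a* changed sign with 1 sample left out (-0.0144 to 0.0565). *Lin28b* changed sign as the mean of its probes (0.04425) and after loess (0.04061), and with 1 sample left out (-0.0904 to 0.102). Neither was called under any setting it was tested in, and the filter on dim genes removed *Lin28a*. The cause of these changes was not tested.

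Added after seeing the data, the replicate block was run without each array, after loess and on the mean of probes, and 3 genes were called each time. Without arrays 1 to 4 in turn, *Hmga2* stood at 0.2065, 0.1775, 0.1962 and 0.1955 and *Igf2bp3* at 0.1759, 0.1627, 0.1479 and 0.1687. *Lin28a* turned to -0.002225 and -0.04135 without array 1 or 4, and *Lin28b* to 0.01989 and 0.0394 without array 2 or 3. With loess and block, and with the mean of probes and block, *Hmga2* stood at 0.2195 and 0.1743, *Igf2bp3* at 0.1952 and 0.2334 and *Lin28b* at 0.04061 and 0.04425. Averaging replicate spots first was not run, since the annotation used names no probes.

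Limits are the dye, which is 1 with the tissue, the 4 arrays and the low signal of *Lin28a* and of 3 of the 4 *Lin28b* probes, near the floor of the array.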
